A study of Homo sapiens with 24 samples.

Results

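PRR9, SLC14A2 and EGFL6 were lower with both small interfering RNAs (siRNAs) against SFPQ and higher with both siRNAs against NONO in SBC-3 cells, a line derived from a human small cell lung cancer. They are 3 of the 60605 genes in the deposited count files, and all 3 were among the 15869 with enough reads to be tested. They were chosen by these measured changes against siCtrl, so their levels under SFPQ and NONO siRNAs are a description and carry no test. All 24 libraries were made from poly(A)-selected RNA of wild-type SBC-3 cells harvested 72 h after reverse transfection with 10 nM of siRNA or antisense oligonucleotide (ASO), with 3 libraries in each of 8 groups. The siRNA groups were siCtrl, siSFPQ-2, siSFPQ-3, siNONO-3 and siNONO-4, and the ASO groups were ASO-Ctrl, ASO-NEAT1-1047 and ASO-NEAT1-1473. Every group, controls included, had passed through lipid transfection, and untransfected cells were not analysed here. Whether the libraries of a group came from separate cultures is not stated, so the spread behind each p-value may be technical.

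SFPQ and NONO are RNA-binding proteins of the same family (the DBHS proteins, with PSPC1). They form dimers with each other and, with the long noncoding RNA NEAT1, build nuclear bodies called paraspeckles. The study targeted SFPQ, NONO or NEAT1 in the same cells, so genes that go opposite ways with the 2 partners can be looked up directly. PRR9 encodes a small proline-rich protein from the epidermal differentiation complex, a gene cluster known for proteins of the cornified layer of skin. SLC14A2 encodes a urea transporter of the kidney collecting duct, where it lets urea cross the cell membrane. EGFL6 encodes a secreted matrix protein with EGF-like repeats that binds integrins and is known from hair follicles, fat and several tumours.

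The 3 genes lie on different chromosomes and on the plus strand of GRCh38. PRR9 (ENSG00000203783) spans chr1:153217584-153219310, has 2 exon blocks and overlaps no other annotated gene. SLC14A2 (ENSG00000132874) spans chr18:45212995-45683688, which is 470.7 kb with 23 exon blocks. EGFL6 (ENSG00000198759) spans chrX:13569601-13633575, with 13 exon blocks. The exonic lengths counted were 1222 bases for PRR9, 4736 for SLC14A2 and 2611 for EGFL6.

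The 250 bases before the start of each gene are shown because genes that move together invite a look at what their promoters hold. They were read from RefSeq (build GRCh38.p14), where each of the 3 genes matched a window at the start given in the count files. The windows are chr1:153217334-153217583 for PRR9, chr18:45212745-45212994 for SLC14A2 and chrX:13569351-13569600 for EGFL6, each 5′ to 3′ on the plus strand. Capitals mark every match, on either strand, to one of 5 motifs: TATAAA (the TATA box), CCAAT (the CCAAT box), GGGCGG (the GC box), TGANTCA (the AP-1 site) and CACGTG (an E-box).
PRR9: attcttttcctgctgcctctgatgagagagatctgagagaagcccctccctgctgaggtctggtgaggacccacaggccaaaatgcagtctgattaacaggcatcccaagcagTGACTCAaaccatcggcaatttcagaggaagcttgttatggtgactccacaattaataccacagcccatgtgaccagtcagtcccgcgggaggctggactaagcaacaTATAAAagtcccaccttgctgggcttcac
SLC14A2: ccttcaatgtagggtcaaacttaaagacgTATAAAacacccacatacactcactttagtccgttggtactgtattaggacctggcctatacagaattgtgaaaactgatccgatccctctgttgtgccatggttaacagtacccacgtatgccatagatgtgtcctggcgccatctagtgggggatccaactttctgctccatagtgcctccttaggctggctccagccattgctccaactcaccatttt
EGFL6: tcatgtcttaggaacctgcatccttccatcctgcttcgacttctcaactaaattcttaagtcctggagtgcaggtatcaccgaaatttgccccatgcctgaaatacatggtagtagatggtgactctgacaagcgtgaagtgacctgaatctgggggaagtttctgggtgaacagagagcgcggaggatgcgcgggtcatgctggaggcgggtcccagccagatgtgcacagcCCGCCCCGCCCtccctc
The PRR9 window held a TATA box 29 bases before the start and an AP-1 match, TGACTCA, 137 bases before it. The SLC14A2 window held a TATA box match 221 bases before the start. The EGFL6 window held a pair of overlapping GC box matches on the opposite strand, beginning 17 and 12 bases before the start. No motif was shared by all 3 windows. Of 35116 RefSeq windows of the same length, 10.7% held TATAAA, 32.0% CCAAT, 42.6% GGGCGG, 6.57% TGANTCA and 6.34% CACGTG. GC content was 51.2% for PRR9, 47.2% for SLC14A2 and 54.8% for EGFL6, beside a median of 58.0% over all windows. A match of letters is a description of the sequence and not a site shown to be bound.

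Library totals ran from 4243196 to 14886353 assigned reads, with the shallowest in siSFPQ-2. The knockdowns could be read in the libraries themselves. SFPQ stood at 17.5% of its siCtrl level over both SFPQ siRNAs and NONO at 17.5% over both NONO siRNAs. Neither set of siRNAs changed its own target alone. SFPQ was at 126.9% of siCtrl over the NONO siRNAs, and NONO at 143.6% over the SFPQ siRNAs. PSPC1 was at 160.7% with the SFPQ siRNAs and 163.1% with the NONO siRNAs, and NEAT1 at 209.1% and 104.6%. The part of these shifts in the levels of the 3 genes was not tested. Over both groups labelled ASO-NEAT1, NEAT1 differed from ASO-Ctrl by -0.26 on the log2 scale (edgeR quasi-likelihood test, adjusted p = 0.9999). These groups are thus named here by their labels. Of 9 small cell and neuroendocrine markers, 4 had enough reads to be tested (NEUROD1, SYP, ENO2 and YAP1), whereas INSM1 had 0 reads and NCAM1 3 over all libraries. Mitochondrial transcripts took 9.59% to 11.6% of reads in the SFPQ siRNA libraries and 7.63% to 9.07% in siCtrl, and their part in the results was not tested.

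PRR9 was nearly absent after SFPQ knockdown and highest after NONO knockdown. It had 1, 36 and 40 reads in siCtrl libraries 1, 2 and 3, which is 0.0894, 3.68 and 2.91 in CPM (counts scaled to a common library size). The siSFPQ-2 libraries held 0, 2 and 0 reads and the siSFPQ-3 libraries 4, 2 and 1. The siNONO-3 libraries reached 3.75, 10.7 and 14.3 CPM, and the siNONO-4 libraries 2.66, 11.6 and 12.5 CPM. Library 1 of siCtrl, with its single read, sat inside the range of the SFPQ siRNA libraries, while the other siCtrl libraries were above all of them. All siNONO-3 libraries were above all siCtrl libraries, but the lowest siNONO-4 library fell within the siCtrl range. Mean PRR9 level was 2.23 ± 1.89 CPM (SD, n = 3) in siCtrl, 0.165 ± 0.286 in siSFPQ-2, 0.281 ± 0.181 in siSFPQ-3, 9.58 ± 5.35 in siNONO-3 and 8.92 ± 5.44 in siNONO-4. Summed over the 6 libraries of each target and scaled by library size, the SFPQ siRNA libraries held 9 PRR9 reads against 77 in siCtrl, and siCtrl was 11.4-fold higher (95% interval 5.70 to 25.9, counting error only). The same ratio for NONO was 4.14-fold above siCtrl (3.26 to 5.32).

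SLC14A2 showed the clearest separation on the SFPQ side. Its siCtrl libraries held 21, 31 and 64 reads (1.88, 3.17 and 4.66 CPM), whereas siSFPQ-2 held 0, 1 and 3 reads and siSFPQ-3 held 0, 1 and 2. Every SFPQ siRNA library was below every siCtrl library, with a top level of 0.315 CPM. The siNONO-3 libraries were at 3.46, 4.78 and 9.42 CPM and the siNONO-4 libraries at 3.61, 6.76 and 16.6 CPM, and the lowest library of each overlapped siCtrl. Mean level was 3.24 ± 1.39 CPM (SD, n = 3) in siCtrl, 0.188 ± 0.166 in siSFPQ-2, 0.121 ± 0.121 in siSFPQ-3, 5.88 ± 3.13 in siNONO-3 and 8.995 ± 6.79 in siNONO-4. By summed reads siCtrl was 22.1-fold above the SFPQ siRNA libraries (10.4 to 56.1), and the NONO siRNA libraries were 2.22-fold above siCtrl (1.80 to 2.74). Among kidney tubule markers, UMOD had 0 reads, SLC12A1 1 and AQP2 17 over the 24 libraries.

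EGFL6 had the most reads behind its values of the 3 genes. The siCtrl libraries held 39, 126 and 147 reads (3.49, 12.9 and 10.7 CPM). The siSFPQ-2 libraries held 1, 8 and 7 reads and the siSFPQ-3 libraries 6, 2 and 3, so that the highest SFPQ siRNA library (1.98 CPM) was below the lowest siCtrl library. The siNONO-3 libraries were at 10.3, 18.6 and 23.1 CPM, overlapping siCtrl, and the siNONO-4 libraries at 16.6, 33.0 and 55.2 CPM, all above siCtrl. Mean level was 9.03 ± 4.92 CPM (SD, n = 3) in siCtrl, 0.949 ± 0.947 in siSFPQ-2, 0.441 ± 0.245 in siSFPQ-3, 17.3 ± 6.52 in siNONO-3 and 35.0 ± 19.4 in siNONO-4. By summed reads siCtrl was 15.4-fold above the SFPQ siRNA libraries (10.4 to 23.7), and the NONO siRNA libraries were 2.87-fold above siCtrl (2.54 to 3.26). The summed level of 3 fibroblast markers, nearly all COL1A1, was 10.4 to 16.6 CPM in siCtrl, 16.6 to 19.8 in siNONO-3, 27.8 to 38.2 in siNONO-4 and 22.0 to 29.6 in ASO-Ctrl. It was not lower with the SFPQ siRNAs, at 15.1 to 19.9 CPM in siSFPQ-2 and 10.8 to 18.2 in siSFPQ-3. DCN was at 0 reads and PDGFRB at 26 over all libraries, and the part of this list in the EGFL6 levels was not tested.

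Per exonic length in siCtrl, EGFL6 stood at 3.46 ± 1.88 in RPKM (CPM per kilobase; SD, n = 3), PRR9 at 1.82 ± 1.55 and SLC14A2 at 0.683 ± 0.294. The PRR9 and EGFL6 ranges overlapped in siCtrl. The order of the RPKM means differed between the NONO siRNAs. In siNONO-4 they were 13.4 ± 7.42 for EGFL6, 7.30 ± 4.45 for PRR9 and 1.90 ± 1.43 for SLC14A2. In siNONO-3 PRR9 at 7.84 ± 4.38 stood above EGFL6 at 6.63 ± 2.50 by less than their spread, with SLC14A2 at 1.24 ± 0.661. In bulk RNA, fewer cells carrying a transcript and less transcript per cell cannot be told apart.

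**Figure D1:**
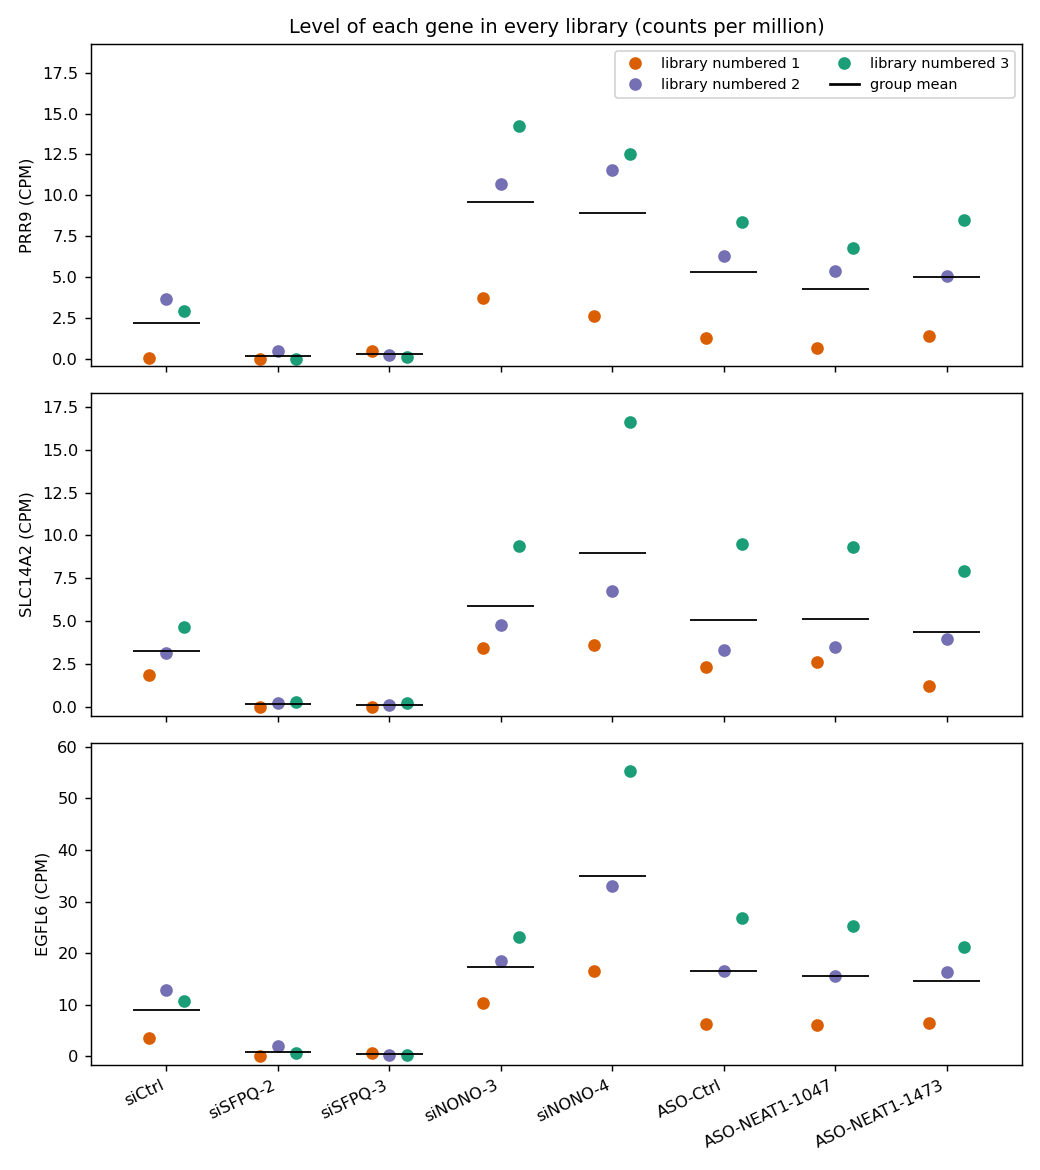
PRR9, SLC14A2 and EGFL6 in CPM (vertical axes) in each of the 24 libraries, by group (horizontal axis), coloured by replicate number, with a line at each group mean (n = 3). The SFPQ siRNA groups lie near 0 for all 3 genes, the NONO siRNA and ASO groups lie above siCtrl on average, and the libraries numbered 1 are the lowest in most groups.

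Each gene was highest on average with a NONO siRNA and lowest with an SFPQ siRNA, and the ASO groups lay between siCtrl and the NONO siRNAs. ASO-Ctrl averaged 5.34 ± 3.64 CPM for PRR9, 5.05 ± 3.89 for SLC14A2 and 16.6 ± 10.2 for EGFL6 (SD, n = 3). It was thus above siCtrl by 1.25 (SE 0.92), 0.57 (SE 0.73) and 0.87 (SE 0.64) on the log2 scale, with 0 of 3 called by edgeR beside 0.454% of all genes. With the replicate block the differences were 1.29 (SE 0.31, adjusted p = 0.0216), 0.58 (SE 0.23, adjusted p = 0.2266) and 0.85 (SE 0.20, adjusted p = 0.02131), which is 2 of 3 called beside 2.21%. The siCtrl libraries also entered the rule, so this is no independent support. Neighbouring groups in this order, ASO-Ctrl beside siCtrl and ASO-Ctrl beside siNONO-3, overlapped in range for every gene.

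In the quasi-likelihood fit over all 24 libraries, the mean of both SFPQ siRNAs against siCtrl was -3.66 (SE 1.52) on the log2 scale for PRR9, -4.34 (SE 1.16) for SLC14A2 and -3.93 (SE 0.90) for EGFL6. The mean of both NONO siRNAs was 2.05 (SE 0.81), 1.15 (SE 0.63) and 1.45 (SE 0.57). With group as the only term, 0 of the 3 genes met the rule in its called form, an adjusted p under 0.05 in the stated direction with each of the 4 siRNAs. The fit called 75 of 15869 genes by it, which is 0.473%. When the replicate number of the labels was added to the model as a block, 3 of 3 met the rule, among 181 genes (1.14%), of which 74 were also in the smaller class. The largest of the 4 adjusted p-values went from 0.1774 to 0.0001372 for PRR9, from 0.4584 to 0.003089 for SLC14A2 and from 0.3366 to 0.0004908 for EGFL6. The estimates hardly moved: the block gave -3.59 (SE 0.56), -4.41 (SE 0.39) and -3.93 (SE 0.32) for SFPQ and 2.13 (SE 0.27), 1.14 (SE 0.20) and 1.48 (SE 0.18) for NONO. Since the rule chose these genes, nothing is read from these counts. Same-numbered siCtrl and siSFPQ-3 libraries passed the pairing criterion of the processing section in 1 of 3 pairs only. The block errors and p-values on the SFPQ side thus rest in part on a pairing that was not shown. Just inside the threshold without the block were SLC16A3 (0.04929) and RHOA (0.04982), and just outside were MTX1 (0.0503) and CSNK1G2 (0.05067). With the block TCHP (0.04884) and CROCC2 (0.04905) were inside and TM7SF3 (0.05087) and IGF2 (0.05088) outside.

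The size of the NONO side depended on the control. Against ASO-Ctrl in place of siCtrl, the NONO siRNAs were higher by 0.80 (SE 0.70) for PRR9, 0.57 (SE 0.60) for SLC14A2 and 0.58 (SE 0.53) for EGFL6 on the log2 scale. The SFPQ siRNAs were at -4.91 (SE 1.29), -4.92 (SE 1.08) and -4.80 (SE 0.83). With ASO-Ctrl and the block together, 1 of 3 genes met the rule, PRR9. In that model the mean NONO difference was 0.84 (SE 0.23), 0.57 (SE 0.18) and 0.63 (SE 0.16). For siNONO-3 alone it was 0.91 (SE 0.26) for PRR9, 0.30 (SE 0.21) for SLC14A2 and 0.15 (SE 0.19) for EGFL6. For siNONO-4 alone it was 0.77 (SE 0.26), 0.84 (SE 0.20) and 1.11 (SE 0.18). ASO-Ctrl is a different kind of oligonucleotide, and the oligonucleotide and the missing protein cannot be told apart in that comparison.

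**Figure D2:**
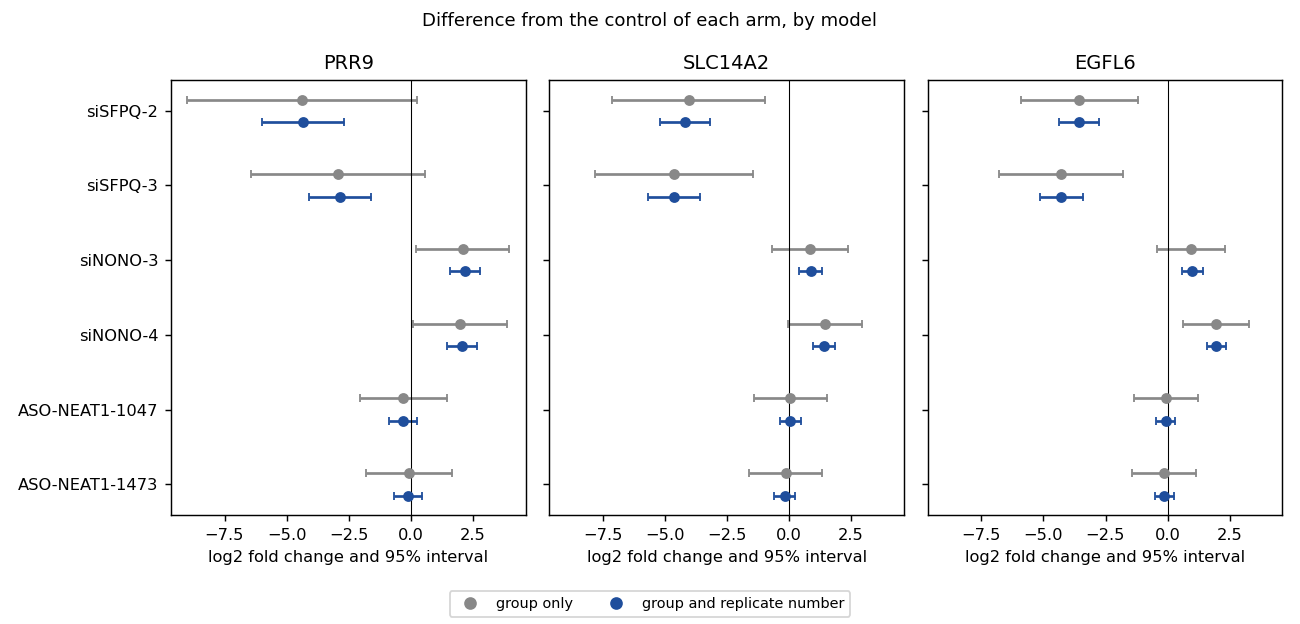
Log2 fold change with its 95% interval (horizontal axes) for each siRNA against siCtrl and each ASO against ASO-Ctrl, in models with group only (grey) and with group and replicate number (blue), for PRR9, SLC14A2 and EGFL6. The points nearly coincide between models while the blue intervals are narrower, and the ASO intervals all include 0.

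The spread inside groups followed the replicate number. PRR9 was lowest in the library numbered 1 in 6 of 8 groups, EGFL6 in 7 of 8 and SLC14A2 in 8 of 8. The library numbered 3 was the highest in 5, 5 and 8 groups. Number 1 failed to be the single lowest only in SFPQ siRNA groups, which held few reads. These were siSFPQ-2 (0, 2 and 0 reads) and siSFPQ-3 (4, 2 and 1) for PRR9, and siSFPQ-3 (6, 2 and 3) for EGFL6. Libraries numbered 3 exceeded those numbered 1 by 2.41 (SE 0.22) on the log2 scale for PRR9, 1.91 (SE 0.15) for SLC14A2 and 1.68 (SE 0.14) for EGFL6. In a test of the number added after this spread was seen (edgeR quasi-likelihood F test in the block fit), the adjusted p was 7.099e-09, 1.949e-11 and 7.765e-09, beside 26.1% of all genes called. SLC14A2 ranked 5 among all tested genes by this test, PRR9 46 and EGFL6 48. Of the 181 genes that met the rule with the block, these genes included, the test called 94 (51.9%). What the numbers stand for is not given in the sources used here. Total reads and mitochondrial share overlapped between numbers: totals ran from 7899220 to 11440612 in the libraries numbered 1 and from 8543946 to 13525528 in those numbered 3, and mitochondrial reads from 7.94% to 9.93% and from 8.39% to 11.6%.

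Within a replicate number the pattern was read pair by pair. The rule used these same siRNA values, and the same control libraries serve both siRNAs of a target. The pair counts are thus a description and not separate evidence. Each NONO siRNA library was above the siCtrl library of the same number in 6 of 6 pairs for all 3 genes. Each SFPQ siRNA library was below it in 6 of 6 pairs for SLC14A2 and EGFL6 and in 5 of 6 for PRR9. The exception was the library numbered 1 of siSFPQ-3, with 4 PRR9 reads beside 1 in siCtrl. Against the ASO-Ctrl library of the same number, the NONO siRNAs were above in 6 of 6 pairs for PRR9 and 5 of 6 for the others, and the SFPQ siRNAs below in 6 of 6 for all 3.

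Comparison of the 2 siRNAs against the same target does not enter the rule. For EGFL6 the log2 level with siNONO-3 minus that with siNONO-4 was -1.01 (SE 0.59, edgeR adjusted p = 0.3308), which did not pass the threshold, and the block gave -0.96 (SE 0.18, adjusted p = 0.0003484). EGFL6 was lower with siNONO-3 in 3 of 3 number-matched pairs. The background for this comparison was 10% of genes called without the block and 17.2% with it. SLC14A2 differed by -0.60 (95% interval -2.0 to 0.80, adjusted p = 0.6452; block -0.54, adjusted p = 0.05657) and PRR9 by 0.12 (-1.51 to 1.74, adjusted p = 0.9495). NONO itself was at 69.2 ± 9.30 CPM with siNONO-3 and 70.1 ± 5.06 with siNONO-4 (SD, n = 3). Between siSFPQ-2 and siSFPQ-3, 0 of the 3 genes passed the same test (background 14.7%), and with so few reads the intervals were wide, from -8.80 to 5.87 for PRR9, -5.57 to 6.73 for SLC14A2 and -3.54 to 5.06 for EGFL6.

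The NEAT1 ASO arm gives a comparison that the rule did not use. PRR9 was at 1.30, 6.32 and 8.38 CPM in ASO-Ctrl, 0.660, 5.39 and 6.79 in ASO-NEAT1-1047 and 1.39, 5.10 and 8.47 in ASO-NEAT1-1473. The groups overlapped almost completely, as they did for the other genes. Over both ASOs the difference was -0.18 for PRR9 (95% interval -1.69 to 1.33), -0.04 for SLC14A2 (-1.31 to 1.23) and -0.11 for EGFL6 (-1.21 to 1.00), with an adjusted p of 0.9999 for each in the edgeR quasi-likelihood test. With the block the intervals narrowed to -0.69 to 0.28, -0.44 to 0.31 and -0.44 to 0.23. This comparison called 0 genes (0%) with or without the block, 0 with DESeq2, and 353 at an unadjusted p under 0.05. NEAT1 itself was not measurably lower in these libraries, so they do not show what its loss would do.

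The 3 genes ranked high within the rule's class by the difference between the 2 effects, and SLC14A2 less so by the smaller effect. In the class of 181 genes met with the block, the difference between the NONO and SFPQ effects placed PRR9 at rank 2, SLC14A2 at rank 3 and EGFL6 at rank 4. The gene at rank 1, ENSG00000266968, lies inside SLC14A2. Ranked by the smaller of the 2 changes, PRR9 was 1, EGFL6 4 and SLC14A2 27. These ranks come from the values that chose the genes.

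**Figure D3:**
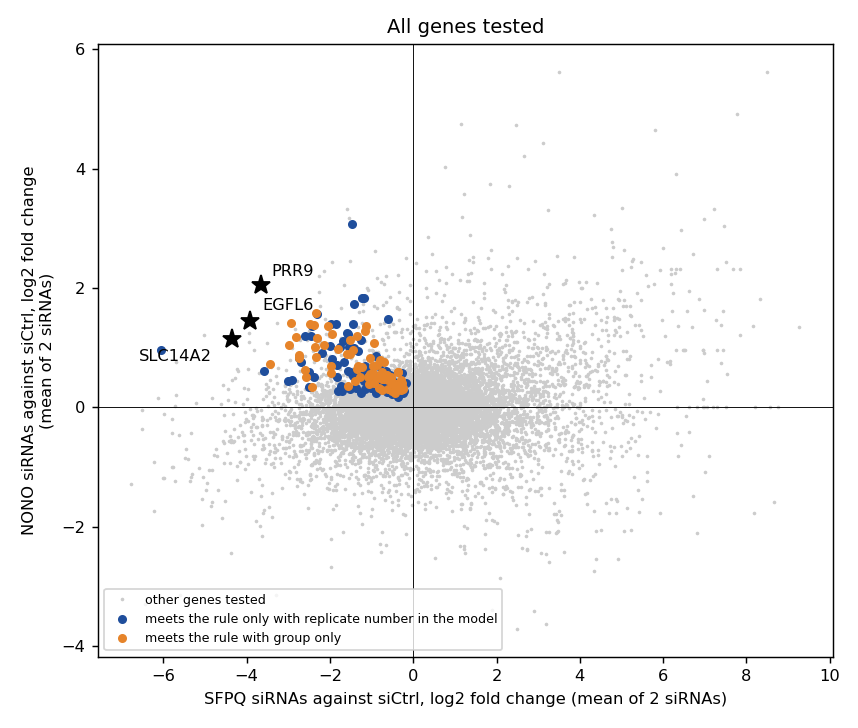
Log2 fold change of the SFPQ siRNAs (horizontal axis) and of the NONO siRNAs (vertical axis) against siCtrl for the 15869 genes tested, with group as the only term. Orange points are the 75 genes that met the rule in this model, blue points those that met it only with the replicate number, and stars PRR9, SLC14A2 and EGFL6, in the upper left.

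The 75 genes called without the block have the same pattern because the rule chose them by it. Their values are a description and no support for the 3 genes. TDRD15, a Tudor domain gene, went from 20.3 CPM in siCtrl to 4.76 and 3.09 with the SFPQ siRNAs and to 47.9 and 59.2 with the NONO siRNAs. NEUROD1, a transcription factor that marks a subtype of small cell lung cancer, went from 4.62 to 2.40 and 1.36 and to 9.93 and 11.2 CPM. Of the other small cell and neuroendocrine markers tested, SYP went the opposite way, at 1.52 (SE 0.19) for SFPQ and -0.73 (SE 0.19) for NONO. ENO2 was at 0.38 (SE 0.10) and -0.10 (SE 0.10), and YAP1 at -0.29 (SE 0.10) and -0.03 (SE 0.10). KRT27, a hair follicle keratin, went from 5.33 to 0.864 and 2.53 and to 11.6 and 13.3. CEMIP, which takes part in breaking down hyaluronan, went from 14.99 to 4.61 and 5.58 and to 44.4 and 24.5. The other named genes, with LINC, ENSG and ribosomal pseudogene symbols left out, were C18orf63, PDC, C4orf17, GAS6-AS1, MACC1 and PRKX, with SFPQ effects between -2.98 (C4orf17) and -0.94 (PRKX) and NONO effects between 0.96 (MACC1) and 1.37 (C18orf63). GAS6-AS1 overlaps GAS6, and the strand setting of the counts is not given in the sources used here, so its reads are uncertain. Of the 75, 28 (37.3%) also differed by replicate number, beside 26.1% of all genes.

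The opposite class, higher with both SFPQ siRNAs and lower with both NONO siRNAs, was larger, with 120 genes (0.756%) and 258 (1.63%) with the block. ANO3, an anoctamin family gene, rose from 11.3 CPM to 152 and 123 with the SFPQ siRNAs and fell to 1.07 and 4.02 with the NONO siRNAs. CNR1, the cannabinoid receptor, rose from 2.12 to 41.4 and 44.9 and fell to 0.550 and 0.745. LRRC31, MMP24 and PPP1CB-DT completed the largest 5.

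Tested genes of the epidermal differentiation complex went both ways with the SFPQ siRNAs, most S100 genes rising and SPRR2 estimates negative like that of PRR9. Of 62 listed genes, 29 had a read and 14 were tested, PRR9 included. Against siCtrl, 8 of the 14 rose and 3 fell over both SFPQ siRNAs, with a median of 0.77 beside -0.02 for all tested genes, of which 34.7% rose and 35.8% fell. All 8 that rose were S100 genes, and PRR9, which the rule chose for its fall, was among the 3 that fell. The calcium-binding proteins S100A10 and S100A3 rose by 3.87 (SE 0.47) and 3.45 (SE 0.56). The small proline-rich proteins SPRR2G and SPRR2D fell by 2.56 (SE 0.74) and 1.73 (SE 0.64). SPRR2A at -1.40 (SE 0.63) and SPRR2F at -1.10 (SE 0.58) were not called. With NONO siRNAs 1 of 14 rose, S100A3 by 2.54 (SE 0.60), beside 7.47% of all genes that rose and 9.96% that fell, and the list's median was 0.51 beside 0 for all genes. With the block 5 of 14 rose, beside 12% of all genes, and PRR9, which the rule chose for its rise, was among them. S100A3 overlaps S100A4, so its reads are uncertain.

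Genes of cornification elsewhere in the genome moved both ways. Of 9 tested, 5 rose and 4 fell with the SFPQ siRNAs, beside 34.7% and 35.8% of all genes. The envelope proteins PPL and DSP rose by 2.50 (SE 0.46) and 1.74 (SE 0.09), while TP63, the master factor of stratified epithelium, and ZNF750 fell by 3.67 (SE 0.15) and 2.37 (SE 0.72). With the NONO siRNAs ABCA12, a lipid transporter of skin, rose by 2.52 (SE 0.25) and PRDM1, KRT10 and TP63 fell, 1 and 3 of the 9, beside 7.47% and 9.96% of all genes. Markers of basal and keratinised epithelium were mostly silent: KRT1 and LORICRIN had 0 reads, KRT5 3 and KRT14 4. Their summed level, which is TP63 and KRT10, was 251.5 to 361.5 CPM in siCtrl, 97.3 to 175.8 with SFPQ siRNAs and 141.5 to 220.8 with NONO siRNAs, and its part in the PRR9 levels was not tested.

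In the urea group 11 of 25 genes were tested, SLC14A2 included. Over both SFPQ siRNAs 2 rose and 6 fell, beside 34.7% and 35.8% of all genes, with a median of -0.60. SLC14A2, which the rule chose for its fall, was among the 6. The water and glycerol channels AQP3 and AQP1 rose by 4.44 (SE 0.33) and 1.74 (SE 0.43). CPS1, which starts the urea cycle, fell by 2.02 (SE 0.13), and SLC25A15, the mitochondrial ornithine carrier, fell by 1.20 (SE 0.09). With the NONO siRNAs edgeR called 0 of 11, DESeq2 called 0, and 1 was lower at an unadjusted p under 0.05. With the block the edgeR fit called 1 higher and 1 lower, beside 12% and 14.8% of all genes. The higher one was SLC14A2, which the rule chose for its rise.

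Matrix proteins with EGF-like repeats and integrins, the group of EGFL6, had 27 of 39 genes tested, EGFL6 included. With the SFPQ siRNAs 11 rose and 11 fell, beside 34.7% and 35.8% of all genes. EGFL6, which the rule chose for its fall, was among the 11 that fell. FREM1 and FBN2, basement membrane and microfibril proteins, rose by 5.29 (SE 0.20) and 3.63 (SE 0.61), and the integrin subunits ITGAV and ITGB1 rose by 2.65 (SE 0.08) and 1.46 (SE 0.09). EGFL8 and DLK2, EGF-like proteins, fell by 2.08 (SE 0.47) and 1.71 (SE 0.38). With the NONO siRNAs 8 fell and 0 rose in the edgeR fit, beside 9.96% and 7.47% of all genes, with 1 higher at an unadjusted p under 0.05 and 0 higher by DESeq2. SCUBE1 and ITGB3 fell by 1.16 (SE 0.30) and 0.97 (SE 0.17). EGFL6, at 1.45, had the highest NONO estimate of the 27 and was the 1 higher at an unadjusted p under 0.05. The rule chose EGFL6 by this contrast, so its place in the list is no support.

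Some genomic neighbours showed the pattern and others did not. Within 500 kb of SLC14A2 7 genes were tested. ENSG00000266968, a noncoding gene on the same strand inside the SLC14A2 span at chr18:45646153-45647937, held 15 to 67 reads in siCtrl, 0 in every siSFPQ-2 library, at most 3 in siSFPQ-3 and 31 to 125 in siNONO-4. Its level was 2.96 ± 1.79 CPM in siCtrl and 7.15 ± 5.10 in siNONO-4 (SD, n = 3). Because it lies within SLC14A2 its reads may come from SLC14A2 transcripts. SETBP1, which encodes a SET-binding protein and ends 144.5 kb before SLC14A2, was at 3.45 ± 2.90 CPM in siCtrl, 0.644 ± 0.737 in siSFPQ-2, 0.562 ± 0.300 in siSFPQ-3, 5.52 ± 3.49 in siNONO-3 and 7.24 ± 5.32 in siNONO-4. SETBP1 shared the spread by number, with libraries numbered 3 above those numbered 1 by 2.47 (adjusted p = 7.464e-12). Both genes met the rule with the block and not without it. On the other side EPG5 and PSTPIP2, 163.9 and 299.8 kb away, did not show it.

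Near PRR9 16 genes were tested. The 5 SPRR2 genes tested, 66.7 to 175.7 kb before it, all had negative SFPQ estimates, from -2.56 (SPRR2G) to -1.10 (SPRR2F), and positive NONO estimates, from 0.28 (SPRR2F) to 1.23 (SPRR2C). With or without the block, 0 of the 5 met the rule. Without it, the adjusted p of the NONO estimate (edgeR quasi-likelihood test) ran from 0.05641 (SPRR2C) to 0.7596 (SPRR2F). With it, SPRR2F was at 0.3604 and the others ran from 0.001596 (SPRR2C) to 0.02471 (SPRR2A). Of all tested genes, 2228 of 15869 had the rule's signs without the block, and whether these neighbours exceed that share was not tested. SPRR2 genes are near-identical copies, so reads may be split among them, and SPRR2G averaged 0.703 ± 0.25 CPM in siCtrl, 0.0398 ± 0.0689 in siSFPQ-3 and 2.27 ± 0.789 in siNONO-4 (SD, n = 3). The S100 genes on the other side, 324.3 kb or more away, had SFPQ estimates from 0.07 (S100A4) to 3.45 (S100A3).

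Near EGFL6 12 genes were tested, and 10 of them fell and 1 rose with the SFPQ siRNAs, beside 35.8% and 34.7% of all genes. LINC02154, a noncoding gene 266.1 kb before EGFL6, rose by 2.62 (SE 0.39) with the NONO siRNAs, from 29.04 ± 7.40 CPM in siCtrl to 167 ± 43.2 in siNONO-3 and 191 ± 70.1 in siNONO-4 (SD, n = 3). Its SFPQ estimate was -0.92 (SE 0.40), with 22.8 ± 6.31 in siSFPQ-2 overlapping siCtrl and 10.3 ± 1.47 in siSFPQ-3 below it. LINC01203, 166.6 kb before EGFL6, met the rule with the block at -0.92 and 0.38. GPM6B, a membrane glycoprotein gene 137.4 kb beyond EGFL6, had the lowest SFPQ estimate of the neighbourhood, -5.61 (SE 0.79), with -0.47 (SE 0.39) for NONO.

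**Figure D4:**
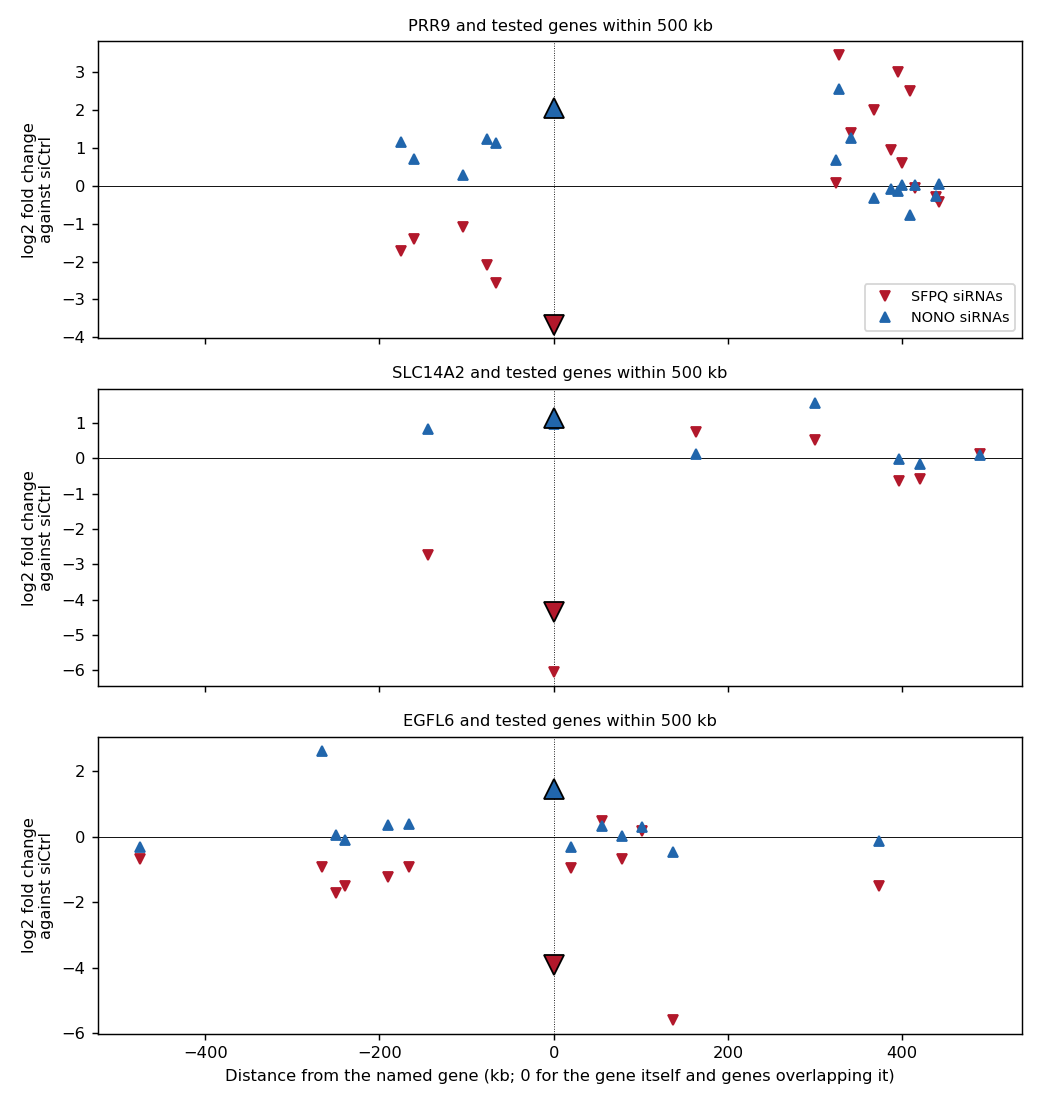
Log2 fold change against siCtrl (vertical axes) for SFPQ siRNAs (red) and NONO siRNAs (blue) by distance in kb (horizontal axis), for tested genes within 500 kb of PRR9, SLC14A2 and EGFL6, whose own values are the large symbols at 0. Negative SFPQ with positive NONO values are seen for the SPRR2 genes before PRR9 and for SETBP1 before SLC14A2. Without the block, none of these NONO values had an adjusted p under 0.05. The S100 genes beyond PRR9, and EPG5 and PSTPIP2 beyond SLC14A2, have positive SFPQ values.

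The 3 genes resembled each other across the 24 libraries. Pearson's r of log2 CPM was 0.964 between SLC14A2 and EGFL6, 0.929 between PRR9 and EGFL6 and 0.898 between PRR9 and SLC14A2. These values describe libraries that share the same groups and replicate numbers. The rule chose all 3 genes by their changes in these libraries, so a high r between them is no independent support. The genes most like PRR9 were ADTRP (r = 0.961), SETBP1 (0.950), CDC16 (0.932), EGFL6 (0.929) and APOB (0.929). Those most like SLC14A2 were FBXO15 (0.967), GDF7 (0.967), TPD52L1 (0.965), RNF217 (0.965) and EGFL6 (0.964), and those most like EGFL6 were LSP1 (0.970), SFRP1 (0.970), ABCA8 (0.969), IL21 (0.969) and PCNPP3 (0.969). LSP1, a cytoskeletal protein of white blood cells, had an SFPQ effect of -2.47 and a NONO effect of 1.20, while SFRP1, a Wnt antagonist, had -1.86 and 0.31.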

How the data were processed

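Per the submitters' processing notes the authors used cutadapt 4.2, STAR 2.7.5a, featureCounts (Subread 2.0.3) and DESeq2 1.38.1 with hg38. The strand setting is not given in the sources used here. The deposited values are raw read counts per gene, 1 file per library, with no normalization by the authors. The 3 genes and all gene lists were chosen with earlier results of these data known. Counts of all 24 libraries were fitted with edgeR 4.0.16 (R 4.3.3; TMM factors, filterByExpr, robust quasi-likelihood), 8 group means, p-values adjusted by Benjamini-Hochberg over 15869 genes. CPM used TMM library sizes, and log2 CPM a pseudocount of 0.5. The scripts were tested on simulated counts.

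The replicate numbers were taken to pair libraries where every same-numbered pair's residuals correlated above 0.1. This held for siCtrl with siNONO (6 of 6 pairs, r 0.159 to 0.376), siNONO-3 with siNONO-4 (3 of 3) and ASO-Ctrl with ASO-NEAT1 (6 of 6). It also held for siCtrl with ASO-Ctrl (3 of 3) and siCtrl with siSFPQ-2 (3 of 3). For siCtrl with siSFPQ-3 only 1 of 3 pairs passed (0.018 to 0.226), and for siSFPQ-2 with siSFPQ-3 also 1 of 3 (0.054 to 0.322). The block was still fitted to all 24 libraries. Named genes were the 3 members, the targets, the 10 largest of the rule's class at 5 CPM or more (LINC, ENSG and ribosomal pseudogene symbols left out), the 5 largest of the opposite class, the 5 most alike per member, tested genes within 500 kb, up to 2 each way per list and the genes beside the threshold. The integrin subunits ITGAV and ITGB1 were named beyond these limits and were not the next largest of their list as a pair. Intervals on read ratios are exact and cover counting error only.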

Additional observations from a re-analysis of the deposited data

Results flagged for a closer look

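The response of EGFL6 to the NONO siRNAs differed between the 2 reagents in a test of the difference itself. With the replicate number in the model, siNONO-3 minus siNONO-4 was -0.96 on the log2 scale (SE 0.18, edgeR adjusted p = 0.0003484), and siNONO-3 was the lower in 3 of 3 number-matched pairs. Without the number it was -1.01 (SE 0.59, adjusted p = 0.3308). NONO had 69.2 and 70.1 CPM left. Groups of 3 libraries are too small for a search for single outlying libraries.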

How the results depend on the processing

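Leaving out 1 library in turn, the class called by the rule held 35 (without siCtrl replicate 1) to 74 genes and the opposite class 45 (without siCtrl replicate 1) to 125, and 0 of the 3 genes were called in each of these fits. With the replicate block the class rose to 181 and the opposite class to 258, and 3 of 3 genes were called. Leaving out 1 library in that model gave 105 (without siCtrl replicate 3) to 199 genes and 2 or 3 of the 3, with SLC14A2 lost without siCtrl replicate 3. With ASO-Ctrl as reference the classes held 48 and 75 genes, and with the block too the rule called 132 genes and 1 of 3. An adjusted p under 0.01 left 22 and 38 genes, a fold of at least 2 with each siRNA 8 and 18, and leaving out the libraries numbered 1 of every group left 33 in the rule's class, 1 of the 3 genes (PRR9) among them.

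Both effects kept their sign for all 3 genes in every alternative run. Leaving out 1 library, the SFPQ effect ran from -5.26 (without siSFPQ-2 replicate 2) to -3.18 for PRR9, -4.87 to -3.96 for SLC14A2 and -4.33 to -3.61 for EGFL6, and the NONO effect from 1.5 to 2.53, 0.75 to 1.52 and 1.07 to 1.76. Against ASO-Ctrl the NONO effect was 0.80 for PRR9 and 0.58 for EGFL6 (0.63 with the block), and the SFPQ effects were -4.91, -4.92 and -4.80 (-4.89, -4.99 and -4.78 with the block).

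The siNONO-3 minus siNONO-4 difference of EGFL6 was -0.96 with the replicate block, and from -1.35 to -0.52 leaving out 1 library without it (-1.12 to -0.83 with it, each still called). The same ranges crossed 0 for PRR9 (-0.33 to 0.49) and SLC14A2 (-1.13 to 0.20). The siSFPQ-2 minus siSFPQ-3 range was -4.64 to -0.68 for PRR9, -0.45 to 1.45 for SLC14A2 and 0.05 to 1.32 for EGFL6. The NEAT1 ASO effect ranged from -0.64 to 0.24, -0.41 to 0.73 and -0.50 to 0.38 and passed in none. The replicate number difference held in 24 of 24 fits per gene (2.29 to 2.59, 1.79 to 1.99 and 1.61 to 1.76). Among the tested siRNA differences and NEAT1 ASO effects the block changed no other call; it also called ASO-Ctrl against siCtrl for PRR9 (1.29) and EGFL6 (0.85). The ASO-Ctrl with block, the block with a library left out, the fit without number 1 and the test of the number were chosen after seeing the data. The low read counts with SFPQ siRNAs, 7 to 27 per gene over 6 libraries, limit any statement on differences between those siRNAs. The cause of these shifts was not tested.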
